A study of Mus musculus with 8 samples.

Results

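The 10 genes described here encode the subunits of the transcription factor NF-κB (Nfkb1, Nfkb2, Rel, Rela and Relb) and proteins that hold it back or fine-tune it (Nfkbia, Nfkbib, Nfkbie, Bcl3 and Tnfaip3). They were taken as a list of names with no threshold on their values, though with earlier results of these data known, and all 10 were found among the 19573 genes that could be named in the RNA data. RNA was sequenced from pre-B cells sorted from bone marrow by surface markers, B220+ and IgM- among them, a gate that also admits pro-B cells, and open chromatin was mapped by ATAC-seq in LSK cells, the lineage-negative Sca1+ cKit+ fraction that holds the hematopoietic stem cells. Each assay had 2 WT and 2 Dido1∆E16 libraries, and each pre-B library was a pool of 2 to 3 mice, with the mice 6 to 10 weeks old and on a C57BL/6 background. Dido1∆E16 mice carried Dido1 flE16/∆E16, in which exon 16 of Dido1 is removed from the remaining floxed copy by iCre under the Vav1 promoter, active in hematopoietic cells, together with an R26R-EYFP reporter. The controls called WT were Dido1 flE16/+ littermates with the same iCre and reporter, so they had 1 floxed allele exposed to Cre and were not strictly wild type.

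NF-κB works as dimers of its 5 subunits. In the canonical route the inhibitors encoded by Nfkbia, Nfkbib and Nfkbie (IκBα, IκBβ and IκBε) keep dimers of p50 (from Nfkb1), RelA and c-Rel in the cytoplasm until a kinase complex marks them for destruction. In the non-canonical route, signals from receptors such as the lymphotoxin β receptor, CD40 and the BAFF receptor lead to processing of p100 (from Nfkb2) to p52, which pairs with RelB. Several of these genes are themselves transcribed in response to NF-κB, which binds short κB sites in their promoters. In developing B cells the pathway is known for its part in survival and in light chain recombination.

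Because such feedback runs through κB sites, the sites at the starts of the genes are shown first. The κB consensus motif, 10 bases long, was searched on both strands in the RefSeq promoter windows of build GRCm38.p6 (the sequence of mm10), which run from 250 bases before to 50 bases after each annotated start. Of the 10 genes, 8 had windows, and Nfkb1 and Relb did not. A match was found in 8 of the 11 windows of these genes, in 6 of the 8 genes, against 4.5% of all 32851 windows. The Nfkb2 windows of the starts at chr19:46305695 and chr19:46305930 overlap, and the match at chr19:46305705-46305714 is counted in both. Nfkb2 had the most. Its upstream start carried 2 separate sites within 39 bases of the start, the farther of which held overlapping matches 1 base apart. The 250 bases before that start, chr19:46304487-46304736 on the plus strand, read as follows, with the matches in capitals.
Nfkb2 upstream start: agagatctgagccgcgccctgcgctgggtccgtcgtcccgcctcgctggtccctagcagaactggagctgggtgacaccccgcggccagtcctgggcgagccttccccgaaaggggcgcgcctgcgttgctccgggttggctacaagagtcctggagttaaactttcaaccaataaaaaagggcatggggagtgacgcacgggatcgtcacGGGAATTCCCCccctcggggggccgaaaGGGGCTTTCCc

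A site of each other gene with a match, and of the downstream Nfkb2 start, is given as 30 bases on the strand of the gene, with the match in capitals, since the open regions described further on either cover or miss them. The Nfkb2 downstream start (chr19:46305695-46305724) had its match from base 11 of the transcript, Nfkbia (chr12:55492657-55492686, minus strand) from 29 bases before the start, Rel (chr11:23771042-23771071, minus strand) from 92 bases before, Tnfaip3 (chr10:19015403-19015432, minus strand) from 12 bases before, Nfkbie (chr17:45555584-45555613, plus strand) from 106 bases before, and Bcl3 (chr7:19822734-19822763, minus strand) from base 3 of the transcript.
Nfkb2 downstream start: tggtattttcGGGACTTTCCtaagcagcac
Nfkbia: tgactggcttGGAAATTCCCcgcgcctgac
Rel: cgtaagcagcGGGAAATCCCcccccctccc
Tnfaip3: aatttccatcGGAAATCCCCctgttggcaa
Nfkbie: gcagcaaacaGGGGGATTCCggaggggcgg
Bcl3: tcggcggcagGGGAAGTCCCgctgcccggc
Not marked or printed are a match of Rel at -91 that overlaps the one shown, a further match of Tnfaip3 at -125 from its start, and one at -236 from the downstream Nfkb2 start that lay in no peak region of any library. The windows of Nfkbib and Rela held no match to the motif.

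The labels were checked before the comparisons. Exon 16 of Dido1 (chr2:180657963-180662583) had a coverage, scaled to TPM (transcript abundance per length, scaled to a fixed library total) units, of 24.6 and 21.8 in the WT pre-B libraries and of 0.30 and 0.08 in the Dido1∆E16 libraries, which fits the genotypes. The 10 pre-B markers had values in every library, with a summed TPM of 16089 and 18547 in WT and 18315 and 18499 in Dido1∆E16. Markers of other stages and cells varied more. The 6 genes of pro-B and large pre-B cells, among them the surrogate light chain genes Vpreb1, Vpreb2 and Igll1, summed to 740 and 405 TPM in WT, against 2697 and 1654 in Dido1∆E16. Their most abundant gene by mean, Vpreb1, stood at 108 and 40.9 TPM in WT, against 1222 and 738 in Dido1∆E16, and none of the 6 was at 0. The 12 genes of neutrophils and monocytes summed to 266 and 2251 TPM in WT, against 1119 and 9792 in Dido1∆E16, led by S100a9 with 72.8, 699, 353 and 2612 TPM. The erythroid genes, of which 5 of 7 were found, summed to 301 and 922 TPM in WT, against 677 and 8641 in Dido1∆E16, led by Hba-a2. The T and NK list summed to between 4.6 and 26.0 TPM with 6 of its 9 genes at 0 throughout, Cd3e, Cd3g and Cd4 among them. The second Dido1∆E16 library therefore had the highest myeloid and erythroid sums, and both Dido1∆E16 libraries had higher sums of the pro-B and large pre-B genes, none of which passed the adjusted test (Vpreb1, log2 difference 3.81, adjusted p = 0.191 by limma).

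**Figure D1:**
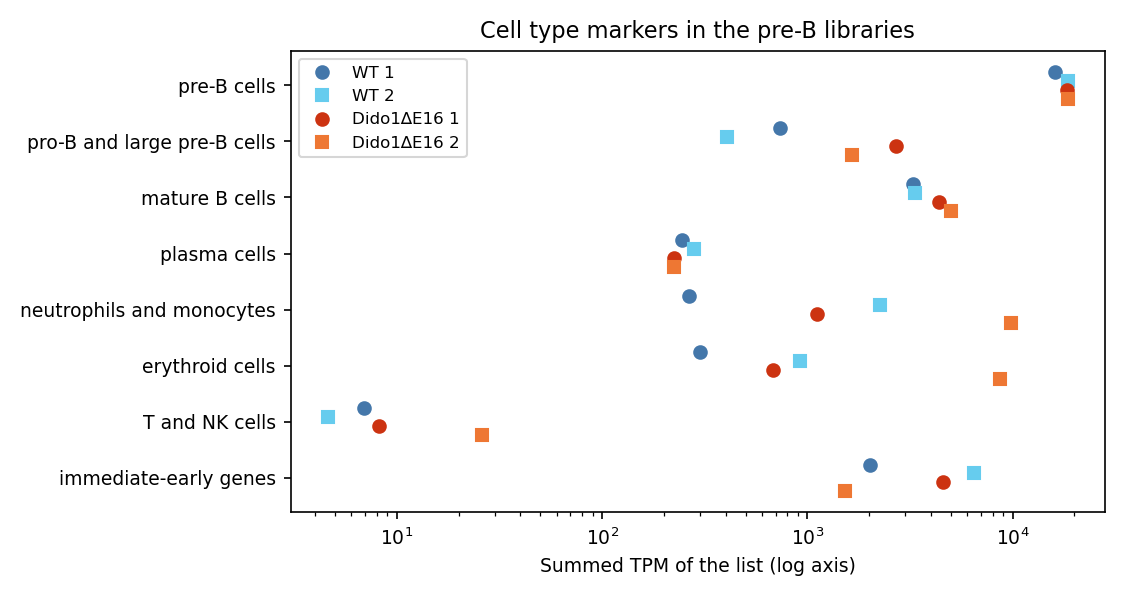
Summed TPM (log axis) of 8 marker lists in each pre-B library, with circles for replicate 1 and squares for replicate 2 of each genotype. The pre-B list stays between 16089 and 18547 TPM, the pro-B and large pre-B list is higher in both Dido1∆E16 libraries, and the myeloid and erythroid lists are highest in Dido1∆E16 replicate 2.

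Nfkb2 was the member that differed most between the genotypes in the pre-B cells. Its transcripts (chr19:46304737-46312090, plus strand), which encode p100, summed to 131 and 125 TPM in WT and to 241 and 318 TPM in Dido1∆E16. Both Dido1∆E16 libraries lay above both WT libraries, and the WT libraries differed by less than 6 TPM. The mean was 128 ± 3.97 TPM in WT and 279.8 ± 54.6 in Dido1∆E16 (SD, n = 2 each), 2.18 times as high. On the log2(TPM + 1) scale the difference was 1.11 (standard error 0.18). Its adjusted p was 0.268 by limma with Benjamini-Hochberg adjustment over the 9991 genes tested, which does not pass the threshold of 0.05. Bulk RNA cannot tell more RNA per cell from more cells of a type that holds it, and the part of the pro-B and large pre-B cells, whose marker sums were higher in the same libraries, in the Nfkb2 values was not tested. The paper also infers more switched memory B cells among the sorted Dido1∆E16 cells than in WT. Their part in the values of Nfkb2 and of the other genes described here was not tested either.

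No member passed the threshold in the gene sums, which was an adjusted p under 0.05 with a log2 fold change of at least 0.6 in size. Of the 9991 genes, 6 were called higher in Dido1∆E16 (0.0601%) and 3 lower (0.03%), so few genes of any kind passed with 2 libraries a genotype. At an unadjusted p under 0.05, 2 members stood out, Nfkb2 and Bcl3, both higher, against 10.7% of all genes tested. An exact permutation test of 2 against 2 libraries cannot go below p = 0.333. The median log2 fold change of the 10 genes was 0.02, beside 0.07 for all genes tested, and its sign turned on single libraries, at -0.21 without WT replicate 1 (0.14 for all genes) and 0.25 without WT replicate 2 (0.01 for all genes).

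Among the other subunits, Nfkb1 (chr3:135584655-135691547, minus strand), the source of p50, had 196 and 165 TPM in WT, against 193 and 224 in Dido1∆E16. The genotypes overlapped, with a log2 difference of 0.21 (standard error 0.16). Rela (chr19:5637490-5648130, plus strand), the main activating subunit of the canonical dimer, had 178 and 183 TPM in WT, against 163 and 157 in Dido1∆E16. The values did not overlap, with a log2 difference of -0.17 (standard error 0.10, adjusted p = 0.661 by limma). Relb (chr7:19606222-19629438, minus strand), the partner of p52, had 65.8 and 96.1 TPM in WT, against 81.7 and 82.0 in Dido1∆E16, which fell between the WT values. Rel (chr11:23741729-23770970, minus strand), which encodes c-Rel, had 36.8 and 98.6 TPM in WT, against 43.4 and 37.8 in Dido1∆E16. Only WT replicate 2 was high, and without it the difference changed from -0.56 (standard error 0.53) to 0.14.

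Among the inhibitors, Nfkbia (chr12:55489409-55492647, minus strand) was by far the most abundant of the 10 genes, with 685 and 1166 TPM in WT, against 1007 and 781 in Dido1∆E16. The lowest of its values exceeded the highest value of any other member, and the genotypes overlapped fully, with a log2 difference of -0.01 (standard error 0.32). Nfkbib (chr7:28758251-28766644, minus strand) had the narrowest range in TPM, from 51.8 to 61.6, and the genotypes overlapped. Nfkbie (chr17:45555700-45563168, plus strand) had 187 and 237 TPM in WT, against 173 and 166 in Dido1∆E16, without overlap, a difference of -0.31 (standard error 0.16, adjusted p = 0.614 by limma). Bcl3 (chr7:19808462-19822755, minus strand), an atypical nuclear IκB that works with p50 and p52 dimers, had 75.5 and 77.8 TPM in WT, against 98.7 and 109 in Dido1∆E16. Both Dido1∆E16 libraries were higher, by 0.43 on the log2 scale (standard error 0.12, adjusted p = 0.397 by limma). Tnfaip3 (chr10:19000910-19015410, minus strand), which encodes the ubiquitin-editing inhibitor A20, had 66.3 and 266 TPM in WT, against 154 and 90.6 in Dido1∆E16. Its WT libraries differed 4.01-fold, more than any other member, and the log2 fold change of -0.17 had a standard error of 0.78.

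In all, 4 members had values that did not overlap between the genotypes, Nfkb2 and Bcl3 higher and Rela and Nfkbie lower in Dido1∆E16. Over all genes tested, both Dido1∆E16 libraries were higher in 26.7% and lower in 14.9%, so that 2 of 10 in each direction lies near the background. Ordered by mean TPM per length, Nfkbia (910) was followed by Nfkb2 (204), Nfkb1 (194), Nfkbie (191), Rela (170) and Tnfaip3 (144), whose ranges over the 4 libraries overlapped, and then by Bcl3 (90.2) and Relb (81.4), which overlapped as well. Nfkbib (57.6) and Rel (54.2) were lowest by mean, although Rel in WT replicate 2 reached the level of Relb. The place of Nfkb2 came from the Dido1∆E16 libraries, since both of its WT values lay below every WT value of Nfkb1, Nfkbie and Rela.

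**Figure D2:**
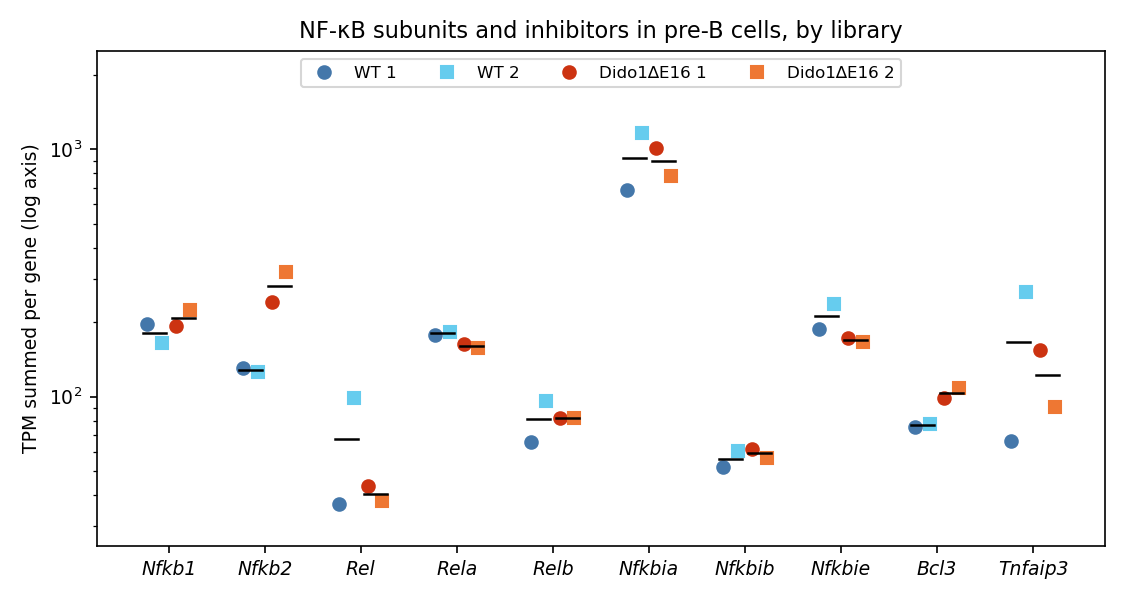
TPM summed per gene (log axis) in each pre-B library, with circles for replicate 1, squares for replicate 2 and a black line at each genotype's mean. Nfkb2 is separated between the genotypes (131 and 125 against 241 and 318 TPM), while Rel, Nfkbia and Tnfaip3 are spread most within WT.

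At the level of single transcripts, the tables listed 23 of the 10 genes, of which 15 reached the mean TPM of 1 needed for the test. The 1 call among them was a transcript of Nfkb2, which passed that filter only through the Dido1∆E16 libraries. This transcript, uc008hst.2 (chr19:46304737-46312090), begins at the upstream start shown above and was listed at 0 in both WT libraries and at 241 and 307 TPM in Dido1∆E16. Over 16372 transcripts tested, 15 were called higher (0.0916%) and 10 lower (0.0611%), and uc008hst.2 was among the former. Having passed the filter through the libraries where it was high, it could only come out higher, so the call is a description and not evidence of a difference. The call was also lost with a pseudocount of 0.1, without the filter on low values and when any library was left out. The transcript that begins at the downstream start, uc008hsx.2 (chr19:46305695-46312090), showed the opposite order, with 131 and 125 TPM in WT, against 0 and 11.3 in Dido1∆E16, and did not pass (adjusted p = 0.439). Another Nfkb2 transcript, uc008hsv.1 (chr19:46304800-46312090), had 58.4 TPM in the first Dido1∆E16 library and 0 elsewhere. It bears no symbol in the tables of the authors and was not in the sums above. With it, the Nfkb2 sum of that library was 299.6 TPM, the log2 difference became 1.26 (standard error 0.11, adjusted p = 0.154 by limma).

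The exons gave a plainer picture of Nfkb2 than the transcripts did. The annotated exons were divided into segments wherever any transcript began or ended an exon, and coverage was scaled to TPM units and added over transcripts. Of 29 segments of at least 20 bases, 22 were covered in all 4 libraries, and in all 22 both Dido1∆E16 libraries exceeded both WT libraries. The segments are parts of 1 gene in the same 4 libraries, so they are not separate evidence beyond the gene sum. Over all genes tested, 26.7% of gene sums were higher in both Dido1∆E16 libraries, and segments of other genes were not counted. The ratio of the genotype means over these 22 segments had a median of 2.39 and ran from 1.87 to 5.96. In the last long segment, which all the expressed transcripts share, coverage was 193 and 181 in WT and 402 and 357 in Dido1∆E16. The segments at the 5′ end were assigned unevenly. The first 63 bases after the upstream start were covered at 69.7 and 80.2 in Dido1∆E16 and at 0 in WT. The 235 bases after the downstream start were covered at 53.9 and 47.8 in WT, at 0 in the first and at 52.3 in the second Dido1∆E16 library. The deposited coverage belongs to transcripts as the assembly estimated them, so a 0 at an exon says that no read was assigned to a transcript holding it, which is less than the absence of reads.

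**Figure D3:**
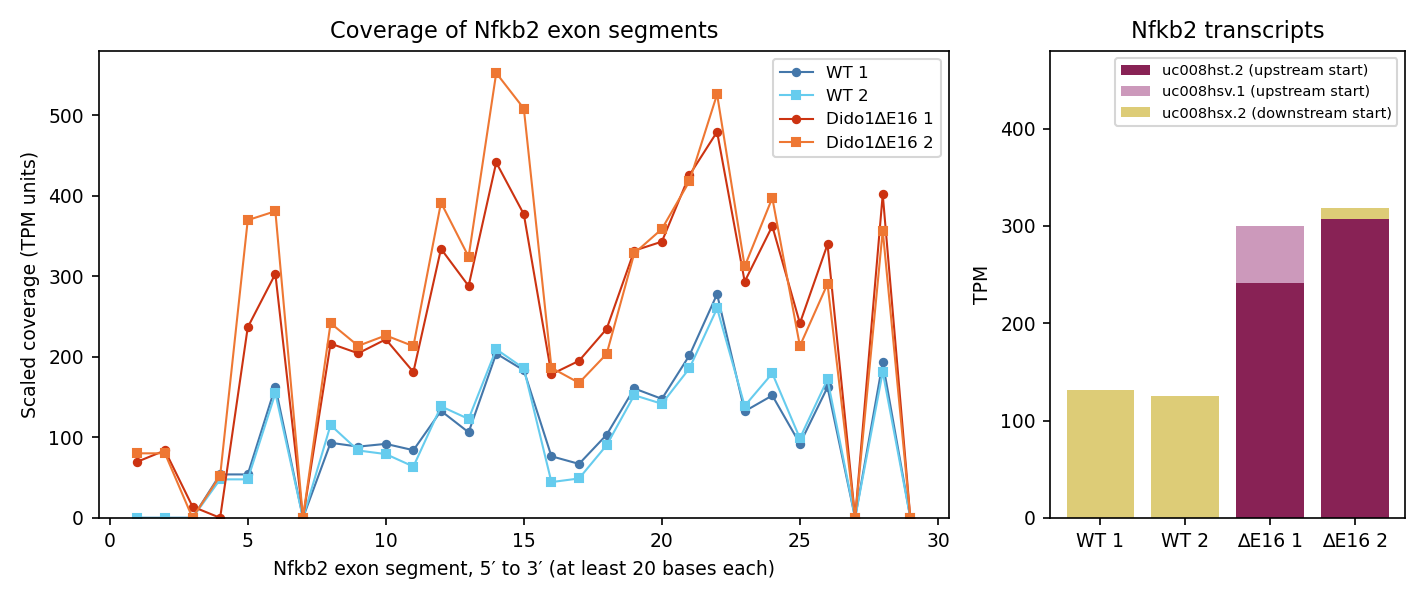
Left, coverage in TPM units of the 29 Nfkb2 exon segments of at least 20 bases, in order from 5′ to 3′, in each pre-B library. Right, stacked TPM of the Nfkb2 transcripts in the same libraries. Both Dido1∆E16 libraries lie above both WT libraries in the 22 segments covered in all 4, and WT is assigned to the transcript from the downstream start.

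The gene next to Nfkb2 was also higher in both Dido1∆E16 libraries, without passing the test. Psd, chosen after its values were seen and encoding a guanine nucleotide exchange factor on the minus strand, ends head-on against Nfkb2 and overlaps the last 4 bases of the expressed Nfkb2 transcripts. Its transcript uc008htc.1 had 16.2 and 16.1 TPM in WT, against 57.0 and 49.7 in Dido1∆E16, a log2 difference of 1.66 (adjusted p = 0.152 by limma). The antisense transcript over the upstream start, uc008hss.1, overlapped between the genotypes, with 23.04 and 31.3 TPM in WT, against 20.4 and 23.4 in Dido1∆E16. No strand setting is given in the sources used here, so reads of overlapping stretches cannot be told apart.

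The other genes of the pathway were read from lists of kinases and adaptors, further inhibitors, receptors, ligands and targets. Many transcripts without a symbol in the authors' tables carry the main form of such genes (Cd40 and Malt1, for example), so for these lists the symbols of GENCODE were added. Of the 11871 genes then tested, 3 were called higher (0.0253%) and 3 lower (0.0253%), none from these lists. Both Dido1∆E16 libraries were higher in 27.1% and lower in 15.6% of these genes.

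The ligand gene Ltb was higher in both Dido1∆E16 libraries, short of the threshold. It encodes lymphotoxin β, the membrane anchor of the ligand that drives the non-canonical route, and had 154 and 155 TPM in WT, against 604 and 670.4 in Dido1∆E16. The genotypes were far apart relative to the spread within each, with a log2 difference of 2.03 (standard error 0.12, adjusted p = 0.0709 by limma, and 0.0515 to 0.34 over the alternatives). Only 2 of the 10 ligand genes could be tested. The other, Il1b, was at or near 0 except for 9.09 TPM in the second Dido1∆E16 library, and 6 ligand genes, Tnf and Cd40lg among them, were listed at 0 in all libraries. Lta, which encodes lymphotoxin α, was too low to be tested and had the opposite order to Ltb. It had 1.43 and 1.61 TPM in WT, against 0 and 0.859 in Dido1∆E16.

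Among the receptors, 9 of 13 were tested, 6 without overlap higher and 1 lower in Dido1∆E16, beside the 27.1% and 15.6% of all genes. Of the 6, Tnfrsf1a and Ltbr passed the filter only through the Dido1∆E16 libraries and could only come out higher, so the count says nothing about the receptors as a group. Tnfrsf13c, the BAFF receptor, was the most abundant with 321 and 325 TPM in WT, against 334 and 355 in Dido1∆E16. Tlr9, a receptor for DNA in endosomes, came next with 70.9 and 125 TPM in WT, against 106 and 133 in Dido1∆E16. Cd40 had 53.7 and 96.1 TPM in WT, against 144 and 117 in Dido1∆E16, and its log2 difference of 0.85 (standard error 0.33) had an unadjusted p of 0.0571 by limma. Tlr2 had 11.1 and 14.2 TPM in WT, against 21.3 and 24.9 in Dido1∆E16, with an adjusted p = 0.327. Tnfrsf1a, a receptor for TNF, and Ltbr, the lymphotoxin β receptor, were listed at 0 in WT and were highest in the second Dido1∆E16 library, at 13.1 and 5.23 TPM, the library with the most myeloid RNA. The part of those cells in these values was not tested.

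The kinases and adaptors had a median log2 fold change of -0.01 over 18 of 19 genes (0.02 over 17 by the authors' symbols alone). Btk, the kinase downstream of the B cell receptor, had between 292 and 313 TPM and Tab2 between 167 and 187. The exception by the unadjusted p was Traf3, an adaptor that restrains the non-canonical route, with 31.6 and 24.7 TPM in WT, against 40.2 and 41.9 in Dido1∆E16 (log2 difference 0.54, standard error 0.19, adjusted p = 0.404 by limma). Map3k14, which encodes NIK, the kinase that Traf3 keeps low, had 39.3 and 44.5 TPM in WT, against 52.1 and 55.4 in Dido1∆E16. The other inhibitors and regulators had a median of -0.04 over 15 genes, with Tax1bp1 the most abundant (251 to 323 TPM). Nfkbid, a nuclear IκB, had 76.0 and 422 TPM in WT, against 161 and 46.0 in Dido1∆E16 and, like Tnfaip3, differed most within the genotypes.

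Among the targets, 21 of 25 genes were tested, with a median log2 fold change of 0.05. Without overlap, 3 genes were higher and 3 lower in Dido1∆E16, beside 27.1% and 15.6% of all genes tested. By the authors' symbols alone the median of the targets was -0.31 over 19 genes, so its sign depended on the naming. Pim2, a kinase that favours survival, had 336 and 365 TPM in WT, against 543.6 and 542 in Dido1∆E16 (log2 difference 0.63, standard error 0.11, adjusted p = 0.222 by limma). Cd83, an activation marker of B cells, had 13.9 and 29.8 TPM in WT, against 7.03 and 8.46 in Dido1∆E16, a difference of -1.30 (standard error 0.42, adjusted p = 0.377 by limma). Myb, the most abundant target by mean, overlapped between the genotypes (672 and 559 against 619 and 458 TPM). Junb ran from 130 to 1031 TPM within WT alone.

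**Figure D4:**
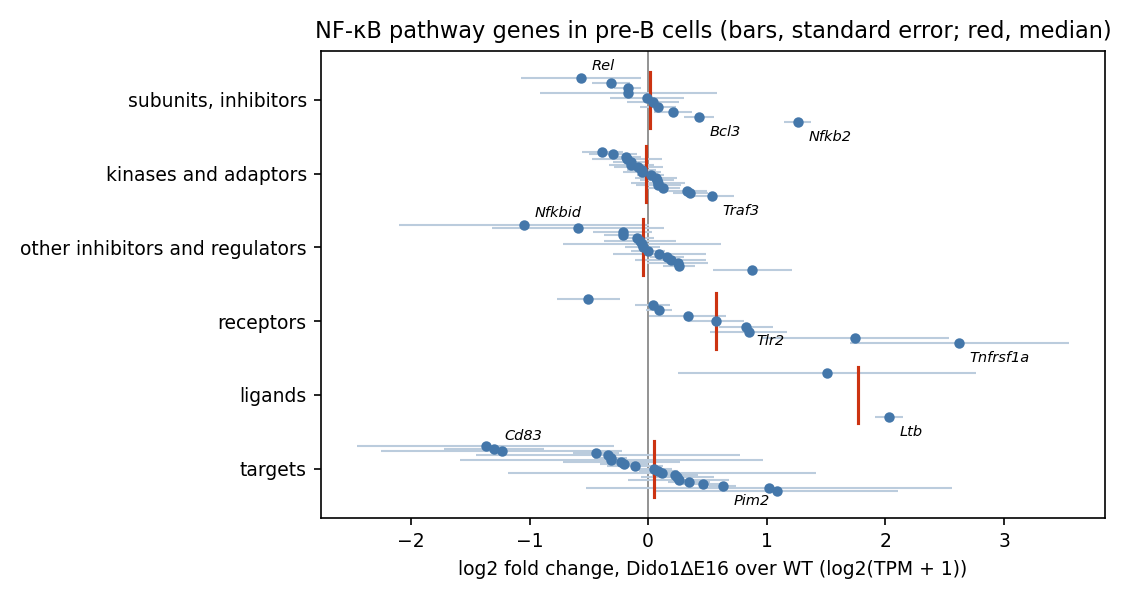
Log2 fold change on the log2(TPM + 1) scale, Dido1∆E16 over WT, of each tested gene of the subunits and inhibitors and of 5 pathway lists, from sums with GENCODE symbols added. Bars are standard errors and red lines list medians. Nfkb2 (1.26, standard error 0.11) and Ltb (2.03, standard error 0.12) lie far from 0 relative to their errors. Some genes with larger errors lie farther from 0 than Nfkb2, Cd83 (-1.30, standard error 0.42) among them.

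In LSK cells the question was whether chromatin at these genes was open in both genotypes. The libraries were unequal. They held 10249256 and 52050898 sequence tags in WT and 22533077 and 44633938 in Dido1∆E16, and the authors' peak caller MACS2 found 27352 and 57739 peaks in WT and 13208 and 16329 in Dido1∆E16, each library called by itself. Promoter peaks at the LSK markers Kit, Cd34, Flt3 and Meis1 were found in all 4 libraries, out of 9 such markers. Gata2 had one in WT replicate 1 only, Hlf, Mecom and Tal1 had one in WT replicate 2 only, and Ly6a, which encodes the sorting marker Sca1, had none. No promoter peak was found at any of 9 T and NK, 12 myeloid or 7 erythroid markers, except in WT replicate 2, the deepest library, which had 1, 3 and 3. Of the 10 pre-B markers, 4 had a promoter peak in WT replicate 2 (Cd79b, Ebf1, Rag1 and Blnk) and 1 in Dido1∆E16 replicate 1 (Ebf1).

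The 10 genes had 28 and 46 annotated peaks in WT and 26 and 15 in Dido1∆E16. Nfkb1 had the most, 9 and 15 in WT and 7 and 1 in Dido1∆E16. Nfkbia had 5 and 5 against 4 and 2, and Relb 2 and 2 against 1 and 1. These were the 3 members for which each Dido1∆E16 library had fewer peaks than either WT library, or 3 of 10 where 35.6% of all genes with a peak showed the same. No member had more peaks in both, as did 0.191% of genes. Nfkb2 had 1, 2, 1 and 1, Nfkbib 1 in each library, Rel 1, 3, 3 and 1, Rela 0, 2, 1 and 2, Nfkbie 1, 2, 1 and 0, Tnfaip3 5, 9, 5 and 3 and Bcl3 3, 5, 2 and 3, in the order WT 1, WT 2, Dido1∆E16 1, Dido1∆E16 2. With the same number of best-scoring peaks from each library, 0 of the 10 genes had fewer in both, where 7.14% of all genes did.

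Merged over the libraries, these peaks formed 50 regions, of which 10 had a peak in all 4. They lay at the promoters of Nfkb2, Rel, Relb, Nfkbia, Nfkbib and Tnfaip3, at 2 places of Bcl3, and at 1 distal place each of Nfkbia and Tnfaip3. The Nfkb2 region (chr19:46304135-46305092) covered the upstream start and its κB sites. Its peak scores were 38 and 105 in WT and 50 and 39 in Dido1∆E16, which ranked above 56.6% and 82.9% of the peaks of the WT libraries and above 61.8% and 66.7% of those of the Dido1∆E16 libraries. The downstream Nfkb2 start (chr19:46305494-46305718) had a peak in WT replicate 2 only. So both genotypes had open chromatin at the upstream start in LSK cells. The sites shown for Nfkbia, Rel and Tnfaip3 also lay in regions with a peak in all 4 libraries, and those of Nfkbie and Bcl3 in regions with a peak in WT replicate 2 only.

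The strongest region of the family was that of the Relb promoter (chr7:19628370-19629528), with scores of 105 and 208 in WT and 122 and 67 in Dido1∆E16, above at least 87.8% of the peaks in each library. In the Dido1∆E16 libraries the peak was annotated to intron 1 and in WT to the promoter, although they overlapped. The distal Nfkbia region (chr12:55446652-55447462), centred 45590 bp past the start, scored 54 and 204 in WT and 84 and 45 in Dido1∆E16, more than the Nfkbia promoter itself (51, 90, 47 and 29). The distal Tnfaip3 region (chr10:19062042-19062833), centred at -47027 bp from the start, scored 57 and 166 in WT and 47 and 16 in Dido1∆E16. The κB motif was present in the central 300 bases of 9 of the 50 regions, against 4.9% of 60531 regions over all genes. A match says only that the letters are there.

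**Figure D5:**
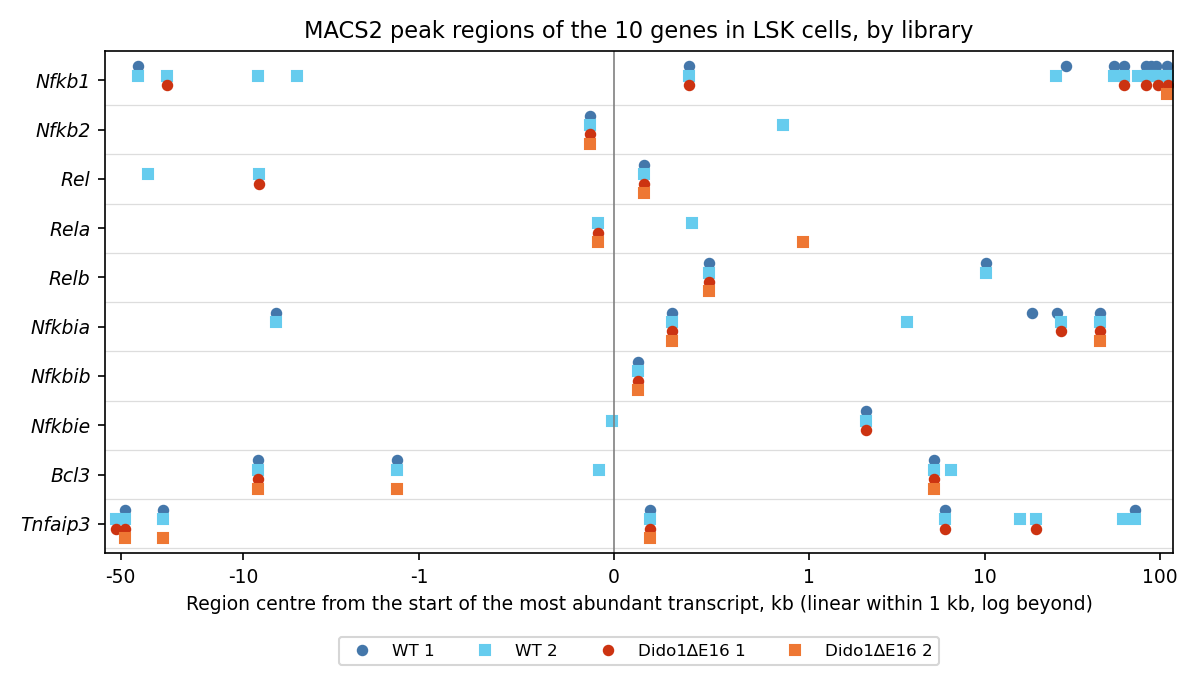
Position of each MACS2 peak region of the 10 genes in LSK cells, as the distance of its centre from the start of the most abundant transcript (kb, linear within 1 kb and logarithmic beyond), with 1 row of symbols a library. Promoter regions of Nfkb2, Rel, Relb, Nfkbia, Nfkbib and Tnfaip3 are marked in all 4 libraries, and most regions of Nfkb1 are missing from Dido1∆E16 replicate 2.

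The WT libraries shared 25 regions at these genes, and 7 of them had no peak in either Dido1∆E16 library (28.0%), against 43.7% of all 26327 shared regions. All 7 lay outside promoters, where 7 of 17 were without a peak against 60.6% of all such regions. At promoters 0 of 8 were, against 15% of all. Of the 7, 4 belonged to Nfkb1. They were intronic at chr3:135597088-135597326, chr3:135602825-135603035 and chr3:135636537-135636752, and intergenic at chr3:135731403-135731657, 40 kb before the start. The others were upstream of Nfkbia (chr12:55499133-55499332), in intron 1 of a short Relb transcript (chr7:19619083-19619296) and downstream of Tnfaip3 (chr10:18943386-18943609). Nfkb1 itself had promoter peaks in 3 libraries and none in Dido1∆E16 replicate 2.

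For 3 regions of these genes tag counts per library were found in the authors' region list for WT against Dido1∆E16. They were on a log2 scale, scaled by the authors to the same number of tags in each library. The authors' list for the opposite comparison was not searched. The searched list holds regions that the authors had chosen for a difference, so the direction comes with the choice. The genotype means of the values below fall short of the fold change that the paper names as significant for accessibility. Which threshold made the list is therefore not known here. At the intergenic Nfkb1 region the values were 5.64 and 6.29 in WT and 5.34 and 4.74 in Dido1∆E16. Over the second intron of Bcl3 (chr7:19815870-19818036) they were 8.20 and 7.96 against 7.47 and 7.31. At the Relb promoter (chr7:19628271-19629690) they were 8.34 and 8.20 against 7.79 and 7.27. Relb RNA in pre-B cells, a later stage, did not separate the genotypes. Bcl3 RNA was higher there in both Dido1∆E16 libraries, without passing the test.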

How the data were processed

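RNA from 4 pre-B pools and ATAC libraries from LSK cells were processed by the authors on mm10. Per the labels, the tools named in the submitters' processing notes include BWA 0.7.15, StringTie, MACS2, HOMER, ChIPseeker and edgeR. The deposited pre-B files gave TPM, FPKM and coverage per UCSC transcript. The deposited peak lists gave a peak score per library, and the authors' region list for WT against Dido1∆E16 gave log2 tag counts. The authors' fold changes and p-values were not used. Transcripts (63753) were named by the symbols in the authors' tables (30124) and TPM was summed per gene. GENCODE vM21 symbols were added for the pathway and marker lists, a choice made after seeing the data. The 10 genes and all lists were chosen with earlier results of these data known. Pathway genes were named by a rule: the 2 most abundant of each list and those with an unadjusted p under 0.05, at most 6. Cd40, Ltbr, Map3k14, Psd, Ier2, Nfkbiz and the immediate-early genes lay outside it and were named after their values were seen. Tests used limma 3.58.1 on log2(TPM + 1) with mean TPM of at least 1, checked on simulated data. A fold change on this scale understates the change of low genes. Summed coverage was 1581 and 1121 megabases in WT and 1635 and 1173 in Dido1∆E16. Peaks were overlapped with bedtools 2.31.1 (at least 1 bp). The study calls the libraries of both assays biological replicates, and the labels do not tie the LSK libraries to single animals. One marker gene is not reported here.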

Additional observations from a re-analysis of the deposited data

Results flagged for a closer look

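The Nfkb2 transcript uc008hsv.1 stands out because it lay outside the gene sums, having no symbol in the authors' tables, and was above the controls, with 58.4 TPM in Dido1∆E16 replicate 1 and 0 in both WT libraries and in Dido1∆E16 replicate 2. It begins 63 bases past the upstream Nfkb2 start.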

How the results depend on the processing

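No member was called in the gene sums under any of the 12 alternatives, the replicate block included (0 of 10). The number of members with values that did not overlap was 4 (41.6% of all genes), and 5 to 9 when a library was left out (60.2% to 78.6%), with 9 on leaving out WT replicate 1 (78.6%) or WT replicate 2 (73.8%). The median of the members was -0.082 on median-centring (-0.024 for all genes). In the fits that leave out a library, the sample left alone in its genotype is assumed to vary like the other genotype. The single Nfkb2 transcript call went to 0 with a pseudocount of 0.1, without the filter and with the replicate block, and leaving out a library gave 0 to 1, the 1 being uc008hsx.2 without Dido1∆E16 replicate 2, where 524 transcripts were called higher and 8 lower. Same-numbered libraries deviated with a correlation of 0.049 over all genes tested. A correlation over all genes cannot exclude a pairing that touches only some of them, so whether the numbers pair the libraries is not known. In both genotypes replicate 1 had more summed coverage and lower myeloid and erythroid sums than replicate 2. The sum of the immediate-early genes rose from replicate 1 to replicate 2 in WT and fell in Dido1∆E16. Relb and Nfkbib changed sign on median-centring (-0.056 and -0.015). Without a library, Rel ranged from -1.26 to 0.14, Relb from -0.23 to 0.31, Nfkbia from -0.39 to 0.37, Nfkbib from -0.024 to 0.19 and Tnfaip3 from -1.16 to 0.83, while Nfkb2 (0.91 to 1.31), Bcl3 (0.36 to 0.50), Rela and Nfkbie kept their sign. By its most abundant transcript alone, a further alternative, Nfkb2 passed the threshold (8.09 on the log2 scale, adjusted p = 0.0273 by limma), but that transcript is uc008hst.2, listed at 0 in WT and past the filter only through Dido1∆E16, so the value is no fold and the call no evidence. Members with fewer peaks in both Dido1∆E16 libraries numbered 1 with HOMER peaks (19.5% of all genes), 0 with equal numbers of peaks (7.14%), 1 with the better-scoring 50% (27.6%), 1 with promoter peaks (11.3%) and 3 to 7 without a library (41.6% to 74.7%, with 7 and 74.7% both without WT replicate 1). The 1 with promoter peaks was Relb, whose overlapping Dido1∆E16 peaks were annotated to intron 1 instead of the promoter. Regions shared by WT without a Dido1∆E16 peak numbered 3 of 28 with HOMER peaks (29.3% of all regions), 1 of 11 with equal numbers (13.2%), 4 of 13 with the better-scoring 50% (40.4%), 2 of 15 with 50% overlap (46.6%) and 10 to 20 without a library (45.6% to 69.9%), the 20 being of 46 without WT replicate 1. Calls over all genes were 6 higher and 3 lower, but 0 with a pseudocount of 0.1, without the filter, with the block or without either WT library, and 57 and 12 without the variance trend. Leaving out a Dido1∆E16 library gave up to 260 higher. Calls over all transcripts were 15 and 10, against 3 and 1 with a pseudocount of 0.1, 2 and 1 without the filter, 0 with the block or without either WT library, 53 and 44 without the trend, and 462 and 18 without Dido1∆E16 replicate 1. The causes were not tested. Within each genotype the library with more tags had more peaks, while WT replicate 1, with the fewest tags, had more peaks than either Dido1∆E16 library. With 2 libraries a group, the precision of every test is limited.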

Other observations

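Immediate-early genes, which many cells switch on within minutes of a stimulus or of handling, split the pre-B libraries across the genotypes. This list of 12 genes was chosen after their values were seen. Their summed TPM was 2011 in WT replicate 1, 6485 in WT replicate 2, 4591 in Dido1∆E16 replicate 1 and 1526 in Dido1∆E16 replicate 2. Fosb had 30.2, 562, 237 and 2.401 TPM in that order, Jun 325, 1466, 922 and 136, and Dusp1, a phosphatase of MAP kinases, 28.0, 249.1, 174 and 28.3. Of the 10 NF-κB genes, 3 (Rel, Nfkbia and Tnfaip3) were likewise highest in WT replicate 2 and second in Dido1∆E16 replicate 1, as were 9.04% of all genes tested, and the other 7 were not. Nfkbid and Junb, named by their abundance, had that order as well. Nfkbiz and Ier2 were named because they shared it, and are no further evidence of it.

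Genes of later B cell stages differed in both directions, and none passed the adjusted test. Cd74, the invariant chain of MHC class II, had 2687 and 2665 TPM in WT, against 3724 and 4389 in Dido1∆E16 (log2 difference 0.60, standard error 0.15, adjusted p = 0.31 by limma). Fcer2a, the low-affinity IgE receptor of mature B cells, had 65.6 and 63.6 TPM in WT, against 29.1 and 46.7 in Dido1∆E16. Sdc1, a marker of plasma cells also found on B cell precursors, had 121 and 102 TPM in WT, against 64.4 and 57.0 in Dido1∆E16 (log2 difference -0.87, standard error 0.16, adjusted p = 0.222 by limma). The plasma cell list summed to 244 and 280 TPM in WT, against 224 and 225 in Dido1∆E16, and dendritic cell genes to at most 5.3 TPM.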
